A study of Mus musculus with 2 samples.

Results

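*Th*, *Dbh*, *Slc6a2* and *Phox2a* are 4 of the 25556 genes in the count matrix of a single-nuclei RNA sequencing (snRNA-seq) study of the mouse brainstem, and they were taken as a fixed list of catecholamine and autonomic genes. They were followed across the deposited clusters, their finer subclusters and the 2 genotypes. A UMI (a molecule counted once by its barcode) of any of the 4 genes was held by 295 of the 18281 nuclei, 148 in WT and 147 in HET, and UMIs of at least 2 of them were held by 29 nuclei.

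*Th* encodes tyrosine hydroxylase, the rate-limiting enzyme of catecholamine synthesis, which makes L-DOPA from tyrosine. *Dbh* encodes dopamine beta-hydroxylase, which turns dopamine into noradrenaline inside vesicles, and *Slc6a2* encodes the noradrenaline transporter, which takes the released transmitter back into the cell. *Phox2a* encodes a paired-like homeodomain transcription factor that is needed for noradrenergic neurons of the locus coeruleus and for parts of the autonomic nervous system to form. In the brainstem, noradrenergic neurons lie in the locus coeruleus and in scattered groups of the pons and medulla, and they take part in arousal, blood pressure and breathing. Dopaminergic neurons share *Th* with them but lack *Dbh*, and some neurons transcribe *Th* without making a catecholamine.

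The WT library came from 1 wildtype littermate and the HET library from 1 mouse with the knock-in missense allele *Scn1a* A1783V/WT, a model of Dravet syndrome bred from a floxed *Scn1a* male and a Sox2-Cre female. Both mice were females of postnatal day 41 on a C57Bl6 background, and neither was treated. Nuclei were taken from dissected, flash-frozen brainstem. With 1 library per genotype no test of genotype was possible, and every interval given is a 95% interval that covers counting error only, not the difference between mice.

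The WT library held 9259 nuclei with 70301390 UMIs and the HET library 9022 nuclei with 66176778 UMIs, with medians of 5456 and 5646 UMIs per nucleus. *Scn1a*, the gene of the knock-in, was at 380 CPM (UMIs of a gene per 1e+06 UMIs, summed over nuclei) in WT and 420 CPM in HET, which does not check the labels because the allele differs by a missense change. Between the libraries 23 cell barcodes recurred. Over the 21997 genes with at least 20 UMIs the median log2 ratio of HET over WT was -0.0917. The marker *Ttr* of the choroid plexus was at 235 CPM in WT and 28.8 CPM in HET over the neuronal nuclei with fewer than 2 of the 4 genes, so the libraries also differed in RNA from outside neurons.

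The genes lie apart in the genome (GRCm38, GENCODE annotation). *Th* (ENSMUSG00000000214) is annotated at chr7:142892752-142931128 on the minus strand, *Dbh* (ENSMUSG00000000889) at chr2:27165233-27183200 on the plus strand, *Slc6a2* (ENSMUSG00000055368) at chr8:92960079-93001667 on the plus strand and *Phox2a* (ENSMUSG00000007946) at chr7:101818313-101822726 on the plus strand. *Phox2a* shares 95 bases with *Inppl1* on the other strand, and whether the counting used strand is not given in the sources used here, so reads from those bases cannot be told apart. The upstream sequences of *Th*, *Dbh* and *Phox2a* are shown because the results turn on whether these genes are transcribed in the same nuclei, and *Phox2a* encodes a homeodomain factor. RefSeq (GRCm38.p6) held a promoter for 3 of the 4 genes, with 250 bases before and 50 after the start, at chr7:142899946-142900245 on the minus strand for *Th*, chr2:27165257-27165556 on the plus strand for *Dbh* and chr7:101818063-101818362 on the plus strand for *Phox2a*. *Slc6a2* had no entry. Each is written from 5′ to 3′ along the gene, and capitals mark TAAT (the core of homeodomain motifs; ATTA on the other strand), TGACGTCA (the full cAMP response element) and TGACG (its start; CGTCA on the other strand), which lies inside TGACGTCA.
Th: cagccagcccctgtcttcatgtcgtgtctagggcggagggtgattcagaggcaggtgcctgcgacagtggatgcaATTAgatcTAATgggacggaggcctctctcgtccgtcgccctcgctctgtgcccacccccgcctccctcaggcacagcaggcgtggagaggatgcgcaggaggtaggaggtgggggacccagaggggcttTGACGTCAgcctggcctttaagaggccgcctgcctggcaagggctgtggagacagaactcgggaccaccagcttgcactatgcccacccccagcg
Dbh: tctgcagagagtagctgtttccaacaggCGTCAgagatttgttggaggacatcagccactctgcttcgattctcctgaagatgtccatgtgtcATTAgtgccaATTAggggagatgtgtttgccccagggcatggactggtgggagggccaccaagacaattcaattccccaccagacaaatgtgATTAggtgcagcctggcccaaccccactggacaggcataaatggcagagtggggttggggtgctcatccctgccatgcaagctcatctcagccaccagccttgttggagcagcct
Phox2a: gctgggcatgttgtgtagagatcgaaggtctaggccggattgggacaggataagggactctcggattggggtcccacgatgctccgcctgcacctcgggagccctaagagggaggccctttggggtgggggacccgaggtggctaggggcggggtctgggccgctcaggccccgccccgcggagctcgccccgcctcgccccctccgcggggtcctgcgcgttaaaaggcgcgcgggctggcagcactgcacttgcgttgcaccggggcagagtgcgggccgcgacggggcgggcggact

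The *Th* promoter held TAAT at 2 places, with first bases at -175 and -167 from the start, and the full TGACGTCA at -45. The *Dbh* promoter held 3 matches to TAAT, at -157, -147 and -65, all on the other strand, and TGACG on the other strand at -222. The *Phox2a* promoter held none of these letters, nor did any of the 3 hold TATAAA, on either strand. GC content was 64.3% for *Th*, 54% for *Dbh* and 71.3% for *Phox2a*. Of 32851 promoters of the same length, 58% held TAAT, 20.8% TGACG, 13.6% TATAAA and 1.79% TGACGTCA, so a TAAT match is common and the full TGACGTCA of *Th* is not. These matches describe the sequence and are not evidence of binding.

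The first question was how much RNA of each gene the 2 libraries held. *Th* gave 100 UMIs in WT and 146 in HET, which is 1.42 CPM (1.16 to 1.73) and 2.21 CPM (1.86 to 2.59). Its log2 ratio of HET over WT was 0.63 (0.26 to 1.01), and it was the only one of the 4 genes whose interval did not hold 0. Over all 21997 genes the interval lay above 0 for 24.8% and below 0 for 39.8%, so an interval of counting error that misses 0 was common in this pair of libraries. A sum over a library cannot tell fewer nuclei of a kind from less RNA in each.

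*Dbh* gave 75 UMIs in WT and 75 in HET, or 1.07 CPM (0.839 to 1.34) and 1.13 CPM (0.891 to 1.42), with a log2 ratio of 0.09 (-0.39 to 0.57). *Slc6a2* gave 54 UMIs in WT and 61 in HET, or 0.768 CPM (0.577 to 1.00) and 0.922 CPM (0.705 to 1.18), with a log2 ratio of 0.26 (-0.29 to 0.82). The sign of the ratio turned for both genes when CPM was averaged over nuclei instead of taken from the sum, to -0.53 for *Dbh* and -0.49 for *Slc6a2*. Neither gene therefore had a direction that these counts can give.

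*Phox2a* gave 22 UMIs in WT and 13 in HET, or 0.313 CPM (0.196 to 0.474) and 0.196 CPM (0.105 to 0.336), with a log2 ratio of -0.67 (-1.78 to 0.38). None of the 4 genes differed 2-fold in either direction, against 5.1% of all genes at least 2-fold higher in HET and 4.94% at least 2-fold lower.

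Few nuclei held these UMIs. *Th* was found in 73 WT nuclei (0.788%) and 86 HET nuclei (0.953%), *Dbh* in 47 (0.508%) and 44 (0.488%), *Slc6a2* in 30 (0.324%) and 29 (0.321%), and *Phox2a* in 20 (0.216%) and 13 (0.144%). Most of these nuclei held 1 UMI. The most in any nucleus was 5 *Th* UMIs in WT and 12 in HET, 7 and 8 for *Dbh*, 10 and 10 for *Slc6a2*, and 2 and 1 for *Phox2a*. The 10 nuclei richest in *Slc6a2* carried 63.0% of its UMIs in WT and 68.9% in HET, and the 10 richest in *Th* carried 30% and 39.7% of its UMIs, so *Th* was spread over more nuclei.

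Free RNA that enters droplets sets a floor for such shares, and it was read from 5736 nuclei that the deposited cluster and the deposited reference label both called non-neuronal. There, 0.105% of nuclei held *Th*, against 1.32% of the 11511 nuclei of neuronal clusters, and the levels were 0.315 and 2.12 CPM. *Dbh* was found in 0.296% of the non-neuronal and 0.599% of the neuronal nuclei, at 0.892 and 1.13 CPM. *Slc6a2* was found in 0.122% and 0.434%, at 0.367 and 0.924 CPM, and *Phox2a* in 0.0349% and 0.261%, at 0.105 and 0.284 CPM. Median depth was 2835 UMIs in the non-neuronal and 8055 in the neuronal nuclei, and with every nucleus thinned to 1000 UMIs the shares were 0.0247% and 0.259% for *Th*, 0.105% and 0.123% for *Dbh*, 0.0437% and 0.0957% for *Slc6a2*, and 0.00961% and 0.036% for *Phox2a*. No non-neuronal nucleus of this set held more than 1 UMI of any of the 4 genes.

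The 29 nuclei with at least 2 of the genes were then set aside. In the remaining neuronal nuclei *Dbh* stood at 0.419 CPM and *Slc6a2* at 0.276 CPM. Both values were below the non-neuronal levels, with overlapping intervals. The shares of nuclei went the other way, at 0.374% against 0.296% for *Dbh* and 0.261% against 0.122% for *Slc6a2*, again with overlapping intervals. The non-neuronal nuclei were shallower. With all nuclei thinned to the same depth, the shares were 0.0637% against 0.105% for *Dbh* and 0.0430% against 0.0437% for *Slc6a2*. The 29 nuclei were chosen by these same UMIs, so a lower level in the rest follows in part from the choice, and lone UMIs of *Dbh* and *Slc6a2* could not be told from free RNA by their level over the neuronal clusters together. Outside the 29 nuclei, the most in any nucleus of neuronal clusters was 2 UMIs of *Dbh* and 2 of *Slc6a2*. Among other clusters, 1 nucleus of micro held 3 UMIs of *Slc6a2* and 1 nucleus of fibro held 2 of *Dbh*. Neither was among the non-neuronal nuclei used for the floor. *Th* remained at 1.43 CPM in the same nuclei, above its non-neuronal level of 0.315 CPM, and *Phox2a* at 0.196 CPM, where the non-neuronal value rested on 2 UMIs.

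The study's clusters placed most of this RNA in neurons. Neuronal clusters held 97.2% of the *Th* UMIs, 84.7% of *Dbh*, 90.4% of *Slc6a2* and 91.4% of *Phox2a*. The largest cluster, neuron.1 (9111 nuclei, *Snap25* at 604 CPM in those with none of the 4 genes), alone held 69.1% of *Th*, 76.7% of *Dbh*, 83.5% of *Slc6a2* and 85.7% of *Phox2a*. Most UMIs of all genes lay there too. Neuronal clusters held 59282694 of 70301390 UMIs in WT and 53272561 of 66176778 in HET. Neuron.1 held 48293097 of them in WT and 40651960 in HET. The shares of the 4 genes thus follow in part from the size of these clusters. The bars of UMIs by cluster show that *Th* had a further source in neuron.2, which the other 3 genes lacked.

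**Figure D1:**
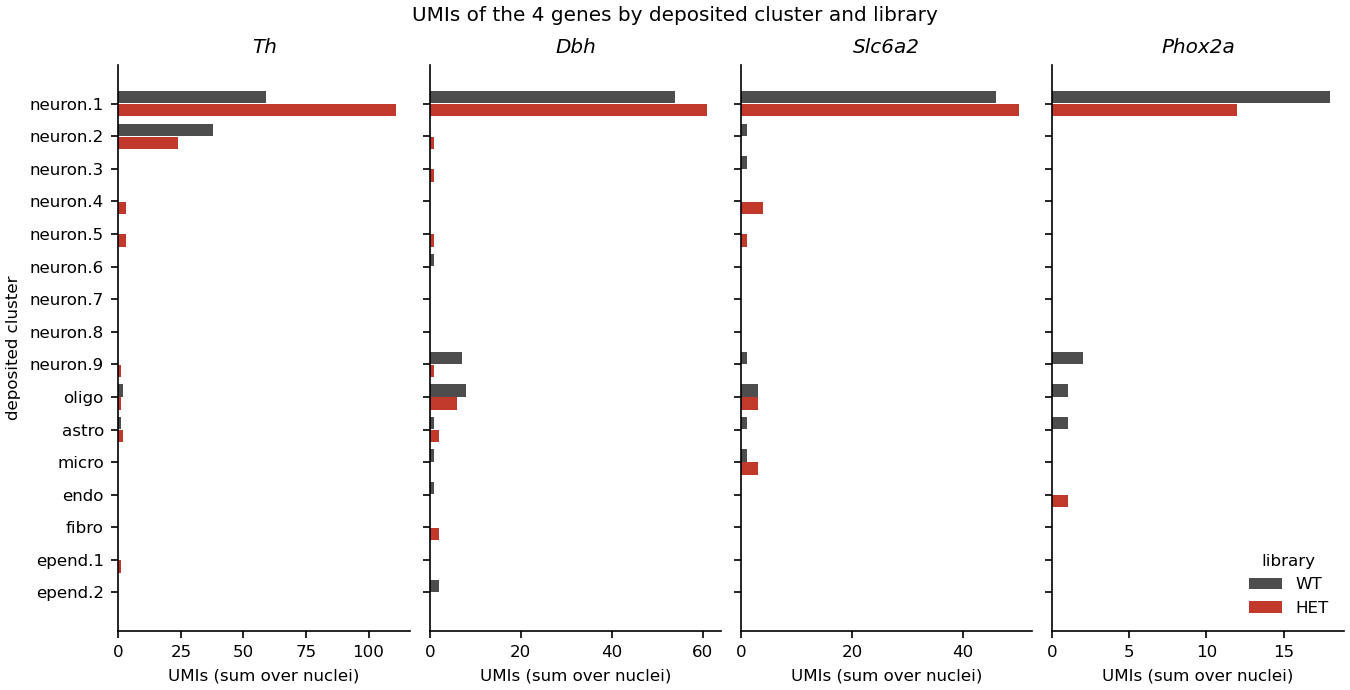
UMIs of each gene (horizontal axis, summed over nuclei, with a scale of its own for each gene) in each of the 16 deposited clusters (vertical axis), for the WT library (dark) and the HET library (red). All 4 genes peak in neuron.1, and *Th* alone has a second bar in neuron.2, with 38 UMIs in WT and 24 in HET.

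Ordered by CPM over both libraries, *Th* was highest in neuron.2 at 11.1 CPM (8.52 to 14.2), with 62 UMIs in 49 of 817 nuclei. It was 10.8 CPM in neuron.9, from 1 UMI, 2.09 CPM in neuron.5, from 3 UMIs, and 1.91 CPM (1.63 to 2.22) in neuron.1, with 170 UMIs in 97 nuclei. No *Th* UMI was seen in neuron.3, neuron.6, neuron.7, neuron.8, endo, epend.2, fibro or micro. Every neighbour in this order had overlapping intervals, but the intervals of neuron.2 and neuron.1 did not overlap.

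*Dbh* was highest in neuron.9 at 86.2 CPM (37.2 to 170), from 8 UMIs in 3 of 37 nuclei, and this interval did not overlap that of the next cluster. It was followed by epend.2 at 4.76 CPM (2 UMIs), fibro at 2.28 CPM (2 UMIs), neuron.1 at 1.29 CPM (1.07 to 1.55, 115 UMIs) and oligo at 1.02 CPM (14 UMIs in 14 nuclei). From epend.2 down, neighbours did not differ beyond counting error. Neuron.9 held 35 WT and 2 HET nuclei with a median of 2034 UMIs, and *Ttr* stood there at 4668 CPM and the myelin gene *Mbp* at 1897 CPM. The part of this other RNA in the *Dbh* level was not tested, and 6 of the 8 UMIs came from 1 nucleus.

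*Slc6a2* was at 10.8 CPM in neuron.9 (1 UMI), 1.59 CPM in micro (4 UMIs), 1.08 CPM (0.874 to 1.32) in neuron.1 (96 UMIs in 42 nuclei), 0.697 CPM in neuron.5 (1 UMI), 0.558 CPM in neuron.4 (4 UMIs, all in HET) and 0.437 CPM in oligo (6 UMIs). *Phox2a* was at 21.6 CPM in neuron.9 (2 UMIs in 1 nucleus), 0.997 CPM in endo (1 UMI) and 0.337 CPM (0.228 to 0.481) in neuron.1 (30 UMIs in 29 nuclei). All neighbours in both orders overlapped, so the place of the small clusters above neuron.1 rests on 1 to 4 UMIs each. For all of *Dbh*, *Slc6a2* and *Phox2a*, neuron.1 is the only cluster with more than 14 UMIs.

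At the finer division into 34 subclusters, subcluster 0 of neuron.1 stood out by its UMIs. It held 113 *Th* UMIs in 47 of 2864 nuclei (4.54 CPM, 3.74 to 5.46), 73 *Dbh* UMIs (2.93 CPM, 2.30 to 3.69), 77 *Slc6a2* UMIs (3.09 CPM, 2.44 to 3.87) and 17 *Phox2a* UMIs (0.683 CPM, 0.398 to 1.09). Subcluster 5, also of neuron.1, held 25 *Dbh* UMIs in 16 of 934 nuclei (2.28 CPM) but 11 of *Th* (1.00 CPM), 6 of *Slc6a2* (0.548 CPM) and 2 of *Phox2a* (0.183 CPM). The small subcluster 21, which holds the nuclei of neuron.9 with some of neuron.1 and neuron.5, had 9 *Dbh* UMIs (17.3 CPM) in 126 nuclei. The *Th* of neuron.2 divided over subcluster 14, with 36 UMIs in 29 of 377 nuclei (12.1 CPM), and subcluster 12, with 26 UMIs in 20 of 452 (9.70 CPM), and neither held *Phox2a*.

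Within neuron.1, *Th* gave 59 UMIs in WT and 111 in HET, or 1.22 and 2.73 CPM, with a log2 ratio of 1.16 (0.69 to 1.64). Without the 29 nuclei the same cluster stood at 0.789 CPM in WT and 1.31 CPM in HET. *Dbh* in neuron.1 gave 54 and 61 UMIs (log2 ratio 0.42, -0.13 to 0.98), *Slc6a2* 46 and 50 (0.37, -0.24 to 0.98) and *Phox2a* 18 and 12 (-0.34, -1.52 to 0.80), and the intervals of these 3 held 0. In subcluster 0 the *Th* counts were 35 in WT and 78 in HET (0.82, 0.23 to 1.44), while *Dbh* gave 31 and 42 (0.10, -0.60 to 0.82) and *Slc6a2* 34 and 43 (0.0056, -0.68 to 0.70). In neuron.2 *Th* stood at 10.6 CPM (7.48 to 14.5) in WT and 12.1 CPM (7.75 to 18.0) in HET, with a log2 ratio of 0.19 (-0.61 to 0.97).

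The 4 genes met in a small set of nuclei. Of the 29 nuclei with UMIs of at least 2 of them, 16 were WT (0.173% of nuclei, exact binomial interval 0.0988 to 0.28) and 13 were HET (0.144%, 0.0767 to 0.246), and 28 of the 29 lay in neuron.1. Subcluster 0 held 10 in WT and 11 in HET, subcluster 5 held 4 and 2, and subcluster 21 held 2 and 0. UMIs of at least 3 genes were found in 6 WT and 9 HET nuclei, and of all 4 in 0 WT and 3 HET nuclei. These few nuclei carried 32.1% of all *Th* UMIs, 53.3% of *Dbh*, 63.5% of *Slc6a2* and 28.6% of *Phox2a*.

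The counts in the richest nuclei were well above 1, but not in all of the set. At least 2 UMIs of each of 2 genes were held by 7 of the 16 WT and 8 of the 13 HET nuclei. In HET, the nucleus richest in these genes held 5 *Th*, 5 *Dbh*, 10 *Slc6a2* and 1 *Phox2a* UMIs of 16299 in all. Another HET nucleus held 9 *Th*, 8 *Dbh*, 2 *Slc6a2* and 1 *Phox2a* of 20492. In WT, the richest nucleus held 4 *Th*, 5 *Dbh*, 10 *Slc6a2* and no *Phox2a* UMIs of 14328. The bars of UMIs per nucleus show that 9 of the 13 HET nuclei held 10 or more UMIs of the genes, against 4 of the 16 WT nuclei. The 1 nucleus of neuron.9, in WT, held 6 *Dbh*, 1 *Slc6a2* and 2 *Phox2a* UMIs of 2356, with no *Th*.

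**Figure D2:**
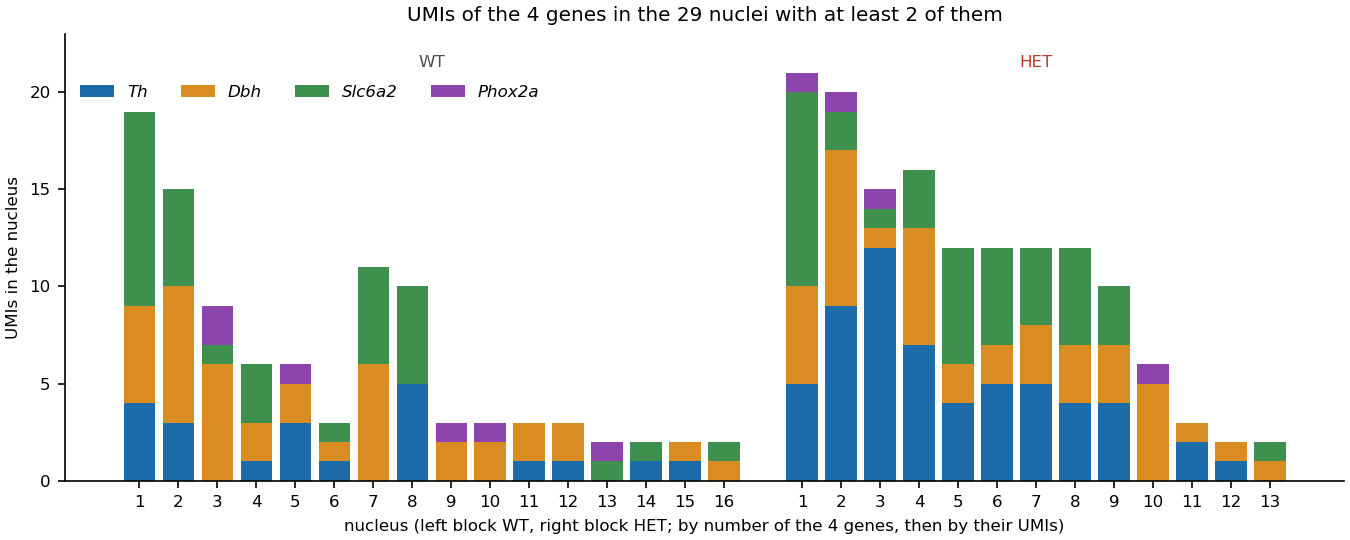
UMIs of *Th*, *Dbh*, *Slc6a2* and *Phox2a* (stacked bars, vertical axis) in each of the 29 nuclei with at least 2 of the genes, 16 WT on the left and 13 HET on the right, ordered by the number of genes held and then by their UMIs. *Phox2a* adds at most 2 UMIs to a bar, and all 4 colours meet in 3 nuclei, all HET.

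The nuclei of this set differed in depth between the libraries. They held 2356 to 16435 UMIs in WT, with a median of 7623, and 5309 to 21762 in HET, with a median of 13881, where the other neuronal nuclei had medians of 7729 and 8384. Their doublet scores, as deposited, had a median of 0.211 in WT and 0.165 in HET, against 0.168 and 0.134 in other neuronal nuclei. *Th* in the set stood at 162 CPM (100 to 248) in WT, from 21 UMIs in 10 nuclei, and 320 CPM (243 to 414) in HET, from 58 UMIs in 11 nuclei. *Dbh* stood at 301 CPM (214 to 411) and 226 CPM (162 to 307), *Slc6a2* at 255 CPM (175 to 358) and 221 CPM (158 to 301), and *Phox2a* at 46.3 and 22.1 CPM from 6 and 4 UMIs. Intervals of the libraries overlapped for all 4 genes, for *Th* by a narrow margin, and the part of depth was not tested. An overlap of separate intervals does not show that the levels were equal.

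Outside the set, *Th* gave 79 UMIs in WT and 88 in HET (1.13 and 1.33 CPM), *Dbh* 36 and 34, *Slc6a2* 21 and 21, and *Phox2a* 16 and 9. The log2 ratio of *Th* without the set was 0.24, since 58 of its 146 HET UMIs and 21 of its 100 WT UMIs lay in these few nuclei.

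Pair by pair, *Th* and *Dbh* shared 19 nuclei, *Dbh* and *Slc6a2* 17, and *Th* and *Slc6a2* 15. Of 91 nuclei with *Dbh*, 17 (18.7%) also held *Slc6a2*, against 0.288% of neuronal nuclei without *Dbh*, and of 59 nuclei with *Slc6a2* 17 (28.8%) held *Dbh*, against 0.454%. *Th* was found in 20.9% of the *Dbh* nuclei and 25.4% of the *Slc6a2* nuclei, against 1.16% and 1.20% of the neuronal nuclei without them. In the other direction, 11.9% of the 159 *Th* nuclei held *Dbh* and 9.43% held *Slc6a2*. Of 33 nuclei with *Phox2a*, 8 (24.2%) held *Dbh*, 5 (15.2%) *Slc6a2* and 4 (12.1%) *Th*. Depth was not matched between the nuclei compared, and its part in these shares was not tested.

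The same nuclei were rich in the rest of the monoamine machinery, which took no part in choosing them. *Slc18a2*, the vesicular monoamine transporter, stood at 479 CPM (405 to 563) in the 29 nuclei and 28.6 CPM in the other 11482 neuronal nuclei, and 23 of the 29 held it. *Ddc*, which makes dopamine from L-DOPA, stood at 154 against 9.51 CPM, and *Gch1*, which starts the synthesis of the cofactor of tyrosine hydroxylase, at 51.5 against 2.25 CPM. *Maoa*, the mitochondrial enzyme that breaks down noradrenaline, stood at 383 against 15.4 CPM, a ratio of 24.9 (20.5 to 30.0). The levels were above those of other neurons in each library: *Slc18a2* was found in 11 of 16 WT and 12 of 13 HET nuclei, *Maoa* in 11 and 12, *Ddc* in 7 and 9, and *Gch1* in 6 and 5.

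Ranked by CPM ratio among 5872 genes, the 10 leading genes were *Calcr*, *Igsf5*, *Lrrc36*, *Eya1*, *Nr4a3*, 5033406O09Rik, *Maoa*, *Peg10*, B020010K11Rik and 1700042O10Rik. *Calcr*, the calcitonin receptor, led with 261 CPM against 3.08 CPM in other neurons, a ratio of 84.5 (65.5 to 108), and was found in 9 WT and 10 HET nuclei. *Eya1*, a transcriptional coactivator and phosphatase, stood at 212 against 4.78 CPM in 6 WT and 10 HET nuclei. *Nr4a3*, an orphan nuclear receptor induced by activity, stood at 90.1 against 1.59 CPM in 4 WT and 10 HET nuclei. *Igsf5*, an immunoglobulin superfamily member, stood at 74.0 against 0.374 CPM, but 19 of its 23 UMIs were HET. *Peg10*, an imprinted gene derived from a retrotransposon, stood at 113 against 4.39 CPM. Of the 10 genes, 1700042O10Rik alone stood higher in the WT than in the HET nuclei of the set (355 and 254 CPM), and *Calcr*, for example, stood at 116 and 364 CPM, beside the difference in depth given above.

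Transcription factors of the noradrenergic lineage were found in part. *Tfap2b* (AP-2 beta) stood at 106 CPM in the 29 nuclei and 9.57 CPM in other neurons, and *Rnf220*, a ubiquitin ligase, at 1274 against 111 CPM. *Gata2*, *Gata3*, *Insm1* and *Tlx3*, which act in the formation of such neurons, had no UMI in the set, where a count of 0 allows up to 9.65 CPM, above their levels of 0.864 to 7.39 CPM in other neurons, so a difference was not detectable at this depth. Among peptides, galanin (*Gal*) stood at 51.5 against 7.59 CPM and neuropeptide Y (*Npy*) at 22.5 against 6.71 CPM, each in a minority of the nuclei.

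Inhibitory and serotonergic genes were low or at 0, and cholinergic genes were not low in WT. The GABA and glycine genes *Gad2* (9.65 against 68.2 CPM), *Slc32a1* (3.22 against 34.9 CPM) and *Slc6a5* (12.9 against 82.4 CPM) were below other neurons, and the dopamine transporter *Slc6a3* and the serotonergic genes *Tph2*, *Slc6a4* and *Fev* had 0 UMIs. A count of 0 in the set allows up to 9.65 CPM. In neuron.1 as a whole these last genes stood at 0.0899 CPM (*Slc6a3*) to 0.933 CPM (*Tph2*), so their zeros show no difference from that cluster. The 5 cholinergic markers summed to 185 CPM (119 to 275) in the WT nuclei of the set, from 24 UMIs in 3 nuclei with 16 of them in 1 nucleus, against 29.8 CPM in other WT neurons. In HET they gave 0 UMIs in the set, against 19.2 CPM in other neurons. *Pnmt*, which makes adrenaline from noradrenaline, had 9 UMIs in the whole series (6 WT, 3 HET), and 2 of them lay in 1 HET nucleus of the set that also held *Th* and *Dbh*.

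Markers of non-neuronal cells in the set were near those of other neurons or differed between the libraries. The 3 oligodendrocyte markers *Mog*, *Mag* and *Mbp* summed to 409 CPM in the WT and 49.7 CPM in the HET nuclei of the set, against 160 and 213 CPM in other neurons, with *Mag* at 0 in HET. The 3 astrocyte markers summed to 123 and 60.7 CPM, against 67.6 and 61.0 CPM, with *Aqp4* at 0 in HET. The 3 microglial markers summed to 123 and 93.8 CPM, against 132 and 170 CPM. Of the choroid plexus markers, *Ttr* gave 37 UMIs in WT and 1 in HET while *Folr1* and *Aqp1* were at 0 in both, and the ependymal, endothelial and fibroblast lists gave 0 to 2 UMIs each. The part of this RNA in the values above was not tested.

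Several other genes were higher in nuclei that held more of the 4 genes. Among neuron.1 nuclei, 8926 held none, 157 held 1, 14 held 2 and 14 held 3 or 4. *Slc18a2* went from 23.7 CPM (none) to 28.9 (1), 194 (2) and 664 CPM (3 or 4), and was found in all 14 nuclei of the last class. *Calcr* went from 2.72 to 6.43, 118 and 353 CPM, and *Tfap2b* from 11.3 to 31.5, 75.7 and 127 CPM. *Ddc* went from 3.87 to 24.4, 42.1 and 227 CPM. Not every gene was highest with 3 or 4. *Gch1* stood at 75.7 CPM with 2 and 36.9 CPM with 3 or 4, *Lrrc36* at 92.6 and 63.3 CPM, *Gal* at 75.7 and 31.6 CPM and *Npy* at 33.7 and 10.5 CPM, from 2 to 12 UMIs each, while *Rnf220* was level at 1287 and 1281 CPM. The cholinergic genes *Chat* and *Slc5a7* stood at 42.1 and 101 CPM with 2 genes, against 4.81 and 8.14 CPM with none, and had no UMI with 3 or 4. The glutamate transporter *Slc17a6* went from 76.6 to 95.8, 109 and 5.27 CPM, so it was present with 2 genes (8 of 14 nuclei) and nearly absent with 3 or 4 (1 of 14). Median depth was 8111, 8525, 7058 and 14071 UMIs in the 4 classes, and a nucleus with more UMIs can show more of the genes. The classes also differed in library. Of the neuron.1 nuclei with at least 2 genes, 15 were WT and 13 HET, and with at least 3 genes, 5 were WT and 9 HET. The parts of depth and library in these steps were not tested.

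**Figure D3:**
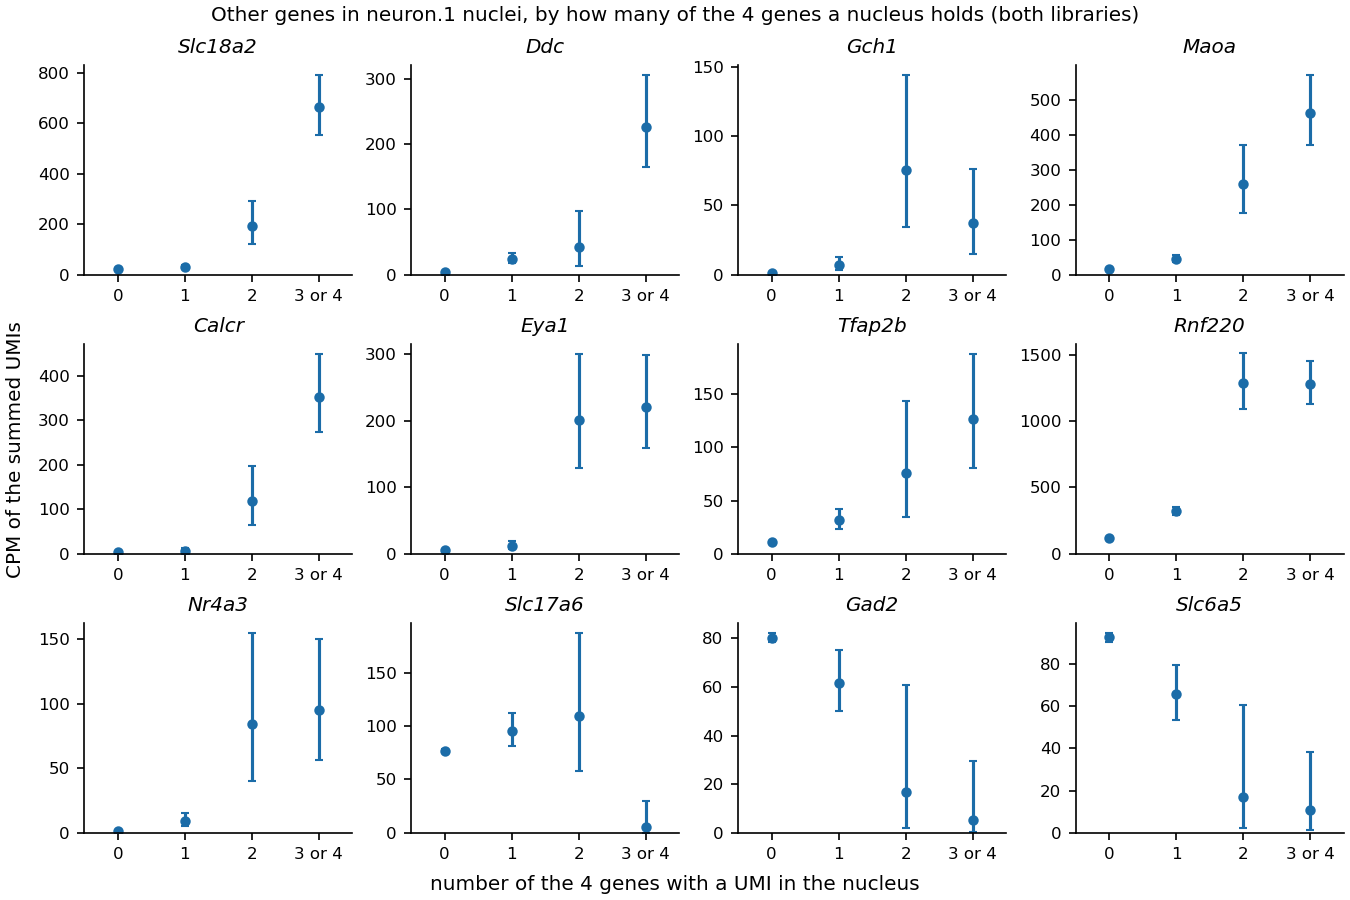
CPM of 12 other genes (vertical axes, from 0, a scale for each gene) in neuron.1 nuclei of both libraries that hold 0, 1, 2 or 3 to 4 of the 4 genes (horizontal axis), as the summed UMIs with 95% counting intervals. *Slc18a2*, *Ddc*, *Maoa* and *Calcr* are highest with 3 or 4 genes, while *Slc17a6*, *Gad2* and *Slc6a5* are at 5.27 to 10.5 CPM there.

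Nuclei with a lone gene looked otherwise in part. The 65 nuclei with *Dbh* and none of the other 3 lay in neuron.1 (37 nuclei), oligo (14, with 1 UMI each) and 10 further clusters, and held *Slc18a2* at 24.4 CPM where the 26 with another gene held 472 CPM. *Ddc* stood at 55.5 CPM (35.9 to 81.9) in these 65, from 25 UMIs in 11 nuclei, and at 160 CPM in the 26. In neuron.1 nuclei with none of the 4 genes it stood at 3.87 CPM. *Gch1* stood at 4.44 CPM in the 65, from 2 UMIs. The 39 with *Slc6a2* alone included 23 of neuron.1, 6 of oligo and 4 of neuron.4, and held *Slc18a2* at 33.6 CPM, against 632 CPM in the 20 with another gene. The 24 with *Phox2a* alone were nearly all of neuron.1 (21), with *Slc17a6* at 155 CPM and *Slc18a2* at 23.5 CPM, against 8.65 and 450 CPM in the 9 with another gene.

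*Th* divided most clearly. The 21 nuclei with *Th* and another of the genes all lay in neuron.1 and held *Slc18a2* at 570 CPM in 18 nuclei, *Ddc* at 200 CPM and *Gch1* at 54.1 CPM. The 138 nuclei with *Th* alone held *Slc18a2* at 22.0 CPM and *Ddc* at 8.14 CPM, and lay in neuron.1 (76 nuclei, 31 WT and 45 HET) and neuron.2 (49 nuclei, 29 WT and 20 HET), with 13 elsewhere.

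The 49 *Th* nuclei of neuron.2 held at most 3 *Th* UMIs each and no UMI of *Dbh*, *Slc6a2*, *Phox2a*, *Ddc*, *Gch1*, *Slc6a3* or *Nr4a2*. The interval of a count of 0 reaches 10.7 CPM in these nuclei. Each of those genes stood at 0.955 CPM (*Ddc*) or lower in the other nuclei of neuron.2, so the zeros show no difference from them. *Slc18a2* stood at 8.66 CPM in the 49 nuclei, from 3 UMIs, against 20.6 CPM in the 768 other nuclei of neuron.2. The vesicular glutamate transporter *Slc17a6* stood at 173 and 156 CPM and the calcium-binding protein gene *Calb1* at 89.5 and 75.3 CPM, so these values were those of the cluster as a whole. The dopamine receptor *Drd2* stood at 49.1 CPM (28.6 to 78.6) in 16 of the 49 nuclei and at 16.1 CPM (12.8 to 19.9) in the rest, and *Car8* at 34.7 (17.9 to 60.5) and 13.0 CPM. In the share of nuclei, *Th* was found in 5.35% of 542 WT and 7.27% of 275 HET nuclei of the cluster.

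**Figure D4:**
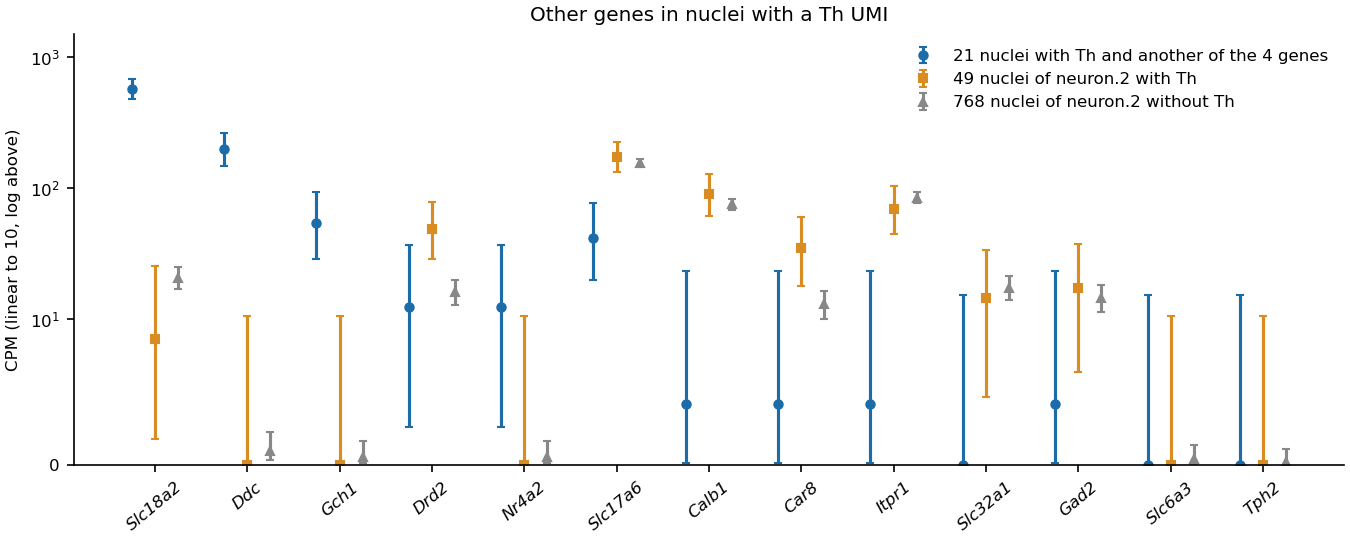
CPM of 13 other genes (vertical axis, linear to 10 and logarithmic above, with 95% counting intervals) in the 21 nuclei with *Th* and another of the 4 genes (blue circles), the 49 neuron.2 nuclei with *Th* (orange squares) and the 768 without (grey triangles). *Slc18a2*, *Ddc* and *Gch1* are high in the blue set and near 0 or low in the orange set, which has *Drd2* at 49.1 CPM.

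No UMI of the 4 genes was seen in the clusters rich in serotonergic or cholinergic genes. Neuron.7, with *Tph2* at 1298 CPM and *Slc6a4* at 709 CPM, both serotonergic markers, held *Slc18a2* at 668 CPM, *Ddc* at 737 CPM, *Gch1* at 171 CPM and *Calcr* at 99.4 CPM, but 0 UMIs of *Th*, *Dbh*, *Slc6a2* and *Phox2a* in 79 nuclei, which allows a share of nuclei with a UMI of up to 3.80% (3 nuclei). Neuron.8, with *Chat*, the acetylcholine-making enzyme, at 158 CPM and the choline transporter *Slc5a7* at 243 CPM, held 0 UMIs of the 4 genes in 53 nuclei, which allows up to 5.66%. These limits cover nuclei with a UMI, not nuclei that transcribe the genes. *Slc18a2*, *Ddc*, *Gch1* and *Calcr* were thus shared with the serotonergic cluster, and the 4 genes themselves were not detected there at this depth. Of the 9111 nuclei of neuron.1, 97 held *Th*, 62 *Dbh*, 42 *Slc6a2* and 29 *Phox2a*, which are shares below both limits. The zeros of neuron.7 and neuron.8 therefore show no difference from neuron.1.

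The gene nearest to *Th* across the 18281 nuclei was *Slc6a2* (Pearson r = 0.23 of log-scaled UMIs), and *Dbh* was nearest to *Slc6a2* (0.32), followed for *Slc6a2* by *Th* and then *Calcr* (0.212). *Phox2a* had no gene with r of at least 0.2. Across the 34 subclusters the nearest genes were others: *Negr1* (0.646), *Frrs1l* (0.636) and Gm8281 (0.615) for *Th*, *Samd7* (0.719), *Cope* (0.682) and *Plin4* (0.682) for *Dbh*, 9330171B17Rik (0.688), *Chrna5* (0.675) and 6530413G14Rik (0.673) for *Slc6a2*, and *Slc4a11* (0.741), *Dda1* (0.721) and *Gabarapl2* (0.673) for *Phox2a*. These are descriptions over points that share 2 libraries and differ in depth. Levels of small subclusters also rest on few UMIs, such as 4 of *Slc6a2* in subcluster 20 and 2 of *Phox2a* in subcluster 21.

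Beyond the 4 genes, the wider pathway was compared between the libraries from fixed lists, of which *Th*, *Dbh*, *Slc6a2* and *Phox2a* are themselves members. Over all 21997 genes with at least 20 UMIs, 9031 were higher and 12966 lower in HET, so more genes lower than higher was the rule. Of 9 genes of catecholamine and cofactor synthesis with at least 20 UMIs, 4 were higher and 5 lower in HET, with intervals above 0 for 3 and below 0 for 5 and a median log2 ratio of -0.169, against -0.0917 over all genes. *Th* had the highest ratio of the list, *Ddc* stood at 0.29 (0.14 to 0.44), and *Spr*, an enzyme of cofactor synthesis, was lowest at -0.75 (-0.96 to -0.53), beside *Gch1* at -0.71. Of 10 genes of monoamine transport and breakdown, 4 were higher and 6 lower, with a median of -0.0676. *Slc18a2* was highest at 0.39 (0.30 to 0.49) and the aldehyde dehydrogenase *Aldh2* lowest at -0.89 (-1.04 to -0.75).

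Of 11 noradrenergic lineage factors, 2 were higher and 9 lower in HET, with intervals above 0 for 1 and below 0 for 7 and a median of -0.44. *Rnf220* was highest at 0.35 (0.32 to 0.38), and *Isl1*, a factor of motor neurons, at -1.18 (-1.66 to -0.72) and *Insm1* at -1.07 were past 2-fold lower. *Phox2a* lay among those that were lower, and its interval held 0, as did those of *Tfap2a* and *Lmx1b*. Of the *Isl1* UMIs, 101 lay in neuron.8, which had 44 WT and 9 HET nuclei, and 68 lay in neuron.1. The part of these unequal numbers of nuclei in the *Isl1* ratio was not tested. Of 10 peptides and receptors known from noradrenergic neurons, 3 were higher and 7 lower, with a median of -0.313. *Gal* gave 829 UMIs in WT and 307 in HET (-1.35, -1.54 to -1.16) and *Npy* 686 and 297 (-1.12), both past 2-fold lower, while neuropeptide S (*Nps*) gave 7 and 20 (1.60, 0.30 to 3.09). These ratios are over all nuclei and are not those of noradrenergic neurons. *Gal* stood at 8.16 CPM in neuron.1, 10.6 CPM in oligo and 11.7 CPM in astro.

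**Figure D5:**
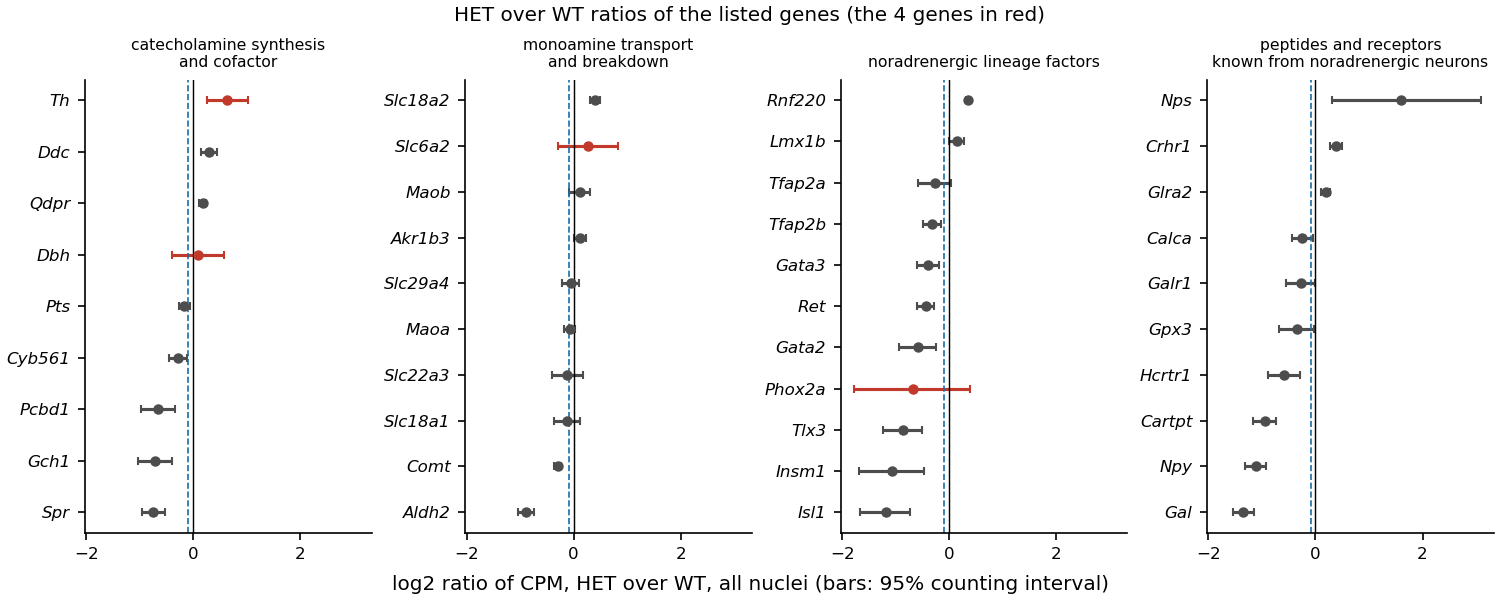
log2 ratios of CPM, HET over WT over all nuclei (horizontal axis, points with 95% counting intervals), for genes of 4 lists with at least 20 UMIs (rows), with the 4 genes in red, a solid line at 0 and a dashed line at the median of all genes, -0.0917. *Th* is the red point whose bar clears 0, and most lineage factors lie to the left of the dashed line.

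Of 8 adrenergic receptors, 2 were higher and 6 lower in HET, with a median of -0.148. *Adra1d* gave 22 UMIs in WT and 44 in HET (1.09, 0.32 to 1.90) and *Adra2c* 291 and 125 (-1.13, -1.45 to -0.83). Of 4 dopamine receptors, 2 were higher and 2 lower, with a median of -0.0276, and all intervals held 0, from *Drd3* at 0.31 to *Drd1* at -0.40. The counts of these lists sit beside backgrounds of 24.8% and 39.8% of all genes with intervals above and below 0. They also sit beside 9031 of all 21997 genes higher and 12966 lower in HET.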

How the data were processed

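Nuclei of 1 WT and 1 HET brainstem were sequenced on the 10x Chromium 3′ platform (v3.1). Per the labels and the study's methods, the authors aligned and counted reads with Cell Ranger (version not given in the sources used here) on mm10, which is GRCm38, and used Seurat 4.1 to remove nuclei with few genes or many mitochondrial UMIs and to cluster the rest. The deposited matrix holds raw UMI counts per gene and nucleus, and the deposited nucleus table holds the clusters, the subclusters (resolution 0.8), a reference label and a doublet score. The doublet caller is not named, every deposited nucleus is listed as a singlet, and no doublet was removed here.

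From the deposited counts, UMIs were summed per library, cluster and subcluster and given as CPM with exact Poisson intervals, shares with exact Clopper-Pearson intervals and ratios with exact conditional binomial intervals, all at 95%. The work used scipy 1.17.1 for intervals, pandas 2.3.3 and numpy 2.4.6 for sums and matplotlib 3.10.9 for plots, under Python 3.11.15. The interval code was tested on simulated data. A share of 0 was given the limit of 3 counts. Ratios over all genes asked for at least 20 UMIs in both libraries together, and thinning was to 1000 UMIs per nucleus. Nuclei are not replicates, so no test was made.

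The genes named were the 4 genes, the highest and lowest ratio of each list and those past 2-fold, up to 5 genes per member correlated across nuclei with r of at least 0.2 (log of 1 plus UMIs per 10000, genes with at least 50 UMIs), the 3 most correlated across subclusters, the 10 with the highest CPM ratio in nuclei with at least 2 of the genes (1 CPM added, UMIs in at least 25% of them), and cell type markers. *Slc18a2*, *Ddc*, *Gch1*, *Tfap2b*, *Rnf220*, *Gal*, *Npy*, the other listed genes and the transmitter genes inside the nuclei sets were named after their values were seen. The members and lists were chosen with earlier results of these data known. Some genes of the lists are not reported here and were left out of the printed lineage factor and oligodendrocyte marker values. Alternatives covered scaling, depth, doublet score, weights and the nuclei that enter.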

Additional observations from a re-analysis of the deposited data

How the results depend on the processing

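No paired analysis was possible because each genotype has 1 library and no test was made. The log2 ratios of HET over WT kept their sign under 10 alternatives for *Th* (0.24 to 0.95) and *Phox2a* (-1.52 to -0.45), and turned for *Dbh* (-0.53 to 0.32) and *Slc6a2* (-0.49 to 0.40) where CPM was averaged over nuclei, to -0.53 and -0.49, and for *Dbh* also in subclusters 0 and 5 alone, at -0.03; the cause was not tested. Without the 29 nuclei *Th* was at 0.24, below the counting interval of the reported ratio. Its levels there were 1.13 CPM (0.891 to 1.40) in WT and 1.33 CPM (1.07 to 1.64) in HET, and these intervals overlapped. This alternative and that of subclusters 0 and 5 were chosen after seeing the data. Thinned to 1000 UMIs, the shares of nuclei in WT and HET were 0.153% and 0.193% for *Th*, 0.127% and 0.102% for *Dbh*, 0.0880% and 0.0646% for *Slc6a2*, and 0.0415% and 0.0152% for *Phox2a*, lower by construction. In neuron.1 without the 29 nuclei, levels in WT and HET were 0.789 and 1.31 CPM for *Th*, 0.436 and 0.494 CPM for *Dbh*, and 0.291 and 0.247 CPM for *Slc6a2*. Nuclei with at least 2 of the genes numbered 7 WT and 8 HET when 2 UMIs of each were asked, 6 WT when 3 genes were asked, and 3 WT and 2 HET when thinned, all within the 29. With at least 100 UMIs, 547 genes were 2-fold higher and 610 lower in HET, from fewer genes tested. Under the alternatives listed at the start, 75 values stayed within the counting interval of the reported value or, for counts of nuclei or genes, within 1.5 times the reported count, and 23 moved; of those chosen after seeing the data, 9 stayed and 1 moved. Depth limits *Phox2a* most, with 35 UMIs in all, and 1 mouse per genotype limits every comparison between WT and HET.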
